A study of Mus musculus with 8 samples.

Results

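The transcripts described here are those that the GENCODE M21 mouse annotation (GRCm38) labels as targets of nonsense-mediated decay (NMD), as counted in ribosome footprints and in total RNA of neurons grown from mouse embryonic stem cells. A transcript was a member when it carried that label and had 10 or more estimated counts in at least 2 of the 8 libraries. Of 60444 annotated transcripts in the deposited table, 3185 carried the label and 2312 of these met the count rule, in 1844 genes (10.1% of 18301). The 34 labelled transcripts whose second highest count was exactly 10 held a median of 3.23% of their gene in RNA and 1.26% in footprints. The 31 whose second highest count was 9, just outside the rule, held 2.34% and 2.24%. There were 1483 genes with 1 member, 286 with 2 and 75 with 3 or more, up to 8 in Tmem234.

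The cells were day 8 in vitro neurons, labelled cortical and glutamatergic, grown from CGR8, a mouse embryonic stem cell line that needs no feeder cells. The 4 groups were footprints of wildtype (WT) neurons, footprints of neurons labelled Eif4g1/Eif4g3 double-knockout (DKO), and total RNA of WT and of DKO neurons, with 2 libraries each. All 8 libraries carry the same treatment label, cycloheximide at 100 µg/ml for 5 minutes, a drug that holds ribosomes in place on the mRNA. The labels give a culture code to each replicate but not the number of clones, and p-values here rest on the scatter of 2 libraries per group.

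NMD is a surveillance pathway that removes mRNAs on which the ribosome stops too early. A stop codon is read as premature when an exon junction complex, the protein mark left by splicing, still lies well downstream of it. The helicase Upf1 is then recruited with the release factors, phosphorylated by the kinase Smg1, and brings in the enzymes that cut or decap the RNA. Many genes for splicing proteins make such transcripts by including a "poison" exon or by splicing in the 3′ end, which lowers the level of their own product. Because the stop is recognised during translation, NMD targets are engaged by ribosomes before they are degraded. What the 2 assays give here is the part of a gene's footprint counts and RNA counts that was assigned to such transcripts.

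Between 10490535 and 19753419 counts were available per footprint library and between 14762047 and 44786643 per RNA library. Summed over 8 neuronal marker genes, 3753 to 5529 CPM (counts scaled to the library total) were measured in every library, and pluripotency markers stayed between 0.477 and 18.6 CPM. The 8 glutamatergic markers summed to 371 to 692 CPM, and 1 of them, Slc17a7, was under 1 CPM in all libraries. Sums were 235 to 545 CPM for 5 GABAergic markers, with Dlx2 under 1 CPM in all libraries, and 608 to 874 CPM for 5 astrocyte markers. In WT footprints the glutamatergic sums were 371 to 502 CPM and the GABAergic ones 518 to 545 CPM. For 6 fibroblast and mural cell markers the sums were 94 to 874 CPM. Eif4g1 stood at 306 and 304 CPM in the RNA of WT and at 137 and 329 CPM in that of DKO, and at 270 and 251 CPM in WT against 141 and 265 CPM in DKO footprints. Eif4g1 was thus low in DKO replicate 1 and at the WT level in DKO replicate 2, and Eif4g3 stood at 112 to 159 CPM in all 8 libraries. The series' title speaks of microexons in these genes, whose loss a whole-gene count would not show, so these values do not check the labels, and DKO below means the libraries so labelled. Neither gene has an NMD transcript in the table.

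The sequences below show where translation of 9 members ends, since the position of the stop codon is what gives them their label. Each is the last 45 coding bases of the spliced transcript in GENCODE M21, 5′ to 3′, with the stop codon in capitals.
Srsf3-201: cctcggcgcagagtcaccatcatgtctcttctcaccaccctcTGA
Khdrbs1-202: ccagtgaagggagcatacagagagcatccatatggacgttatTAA
Hnrnpk-203: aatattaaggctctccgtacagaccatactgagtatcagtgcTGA
Ptbp2-206: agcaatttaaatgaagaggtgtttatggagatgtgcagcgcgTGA
Timm23-202: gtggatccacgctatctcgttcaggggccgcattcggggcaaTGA
Ddx5-208: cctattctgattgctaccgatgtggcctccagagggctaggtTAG
Son-212: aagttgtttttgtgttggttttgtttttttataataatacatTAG
Ttyh1-201: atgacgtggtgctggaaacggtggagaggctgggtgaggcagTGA
Plrg1-201: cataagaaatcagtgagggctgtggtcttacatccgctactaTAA

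They stand for 3 situations. In Srsf3-201 the TGA (chromosome 17, 29039485 to 29039487, plus strand) lies in exon 4 of 7, a 456-base exon that no coding isoform of the gene in the table holds. Likewise in Ddx5-208 (chromosome 11, 106783954 to 106783956, minus strand) and Son-212 (chromosome 16, 91671535 to 91671537, plus strand) the stop lies outside every exon of the coding isoforms. In Khdrbs1-202 the TAA (chromosome 4, 129716089 to 129716091, minus strand) is the stop codon of the coding isoform itself, and the 3′ end is spliced after it. The stops of Hnrnpk-203 (chromosome 13, 58396879 to 58396881, minus strand), Ptbp2-206 (chromosome 3, 119724160 to 119724162, minus strand), Timm23-202 (chromosome 14, 32193467 to 32193469, minus strand), Ttyh1-201 (chromosome 7, 4125557 to 4125559, plus strand) and Plrg1-201 (chromosome 3, 83070624 to 83070626, plus strand) lie in exons of coding isoforms, at a triplet that is not the stop codon of those isoforms. Among the 2175 members that could be tested, 1167 had their stop in an exon of a coding isoform, 769 outside such exons and 166 at the stop codon of a coding isoform, 72 had no coding isoform in the table and 1, Rapgef1-207, has no annotated stop. The stop lay more than 50 bases before the last exon junction in 2163 of the 2175 (99.4%). For Rapgef1-207 the end of its annotated coding part was used in place of a stop.

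Summed over all members, NMD transcripts took a larger part of the footprints than of the RNA. Their share of all counts was 3.19% and 3.25% in WT footprints and 3.24% and 3.14% in DKO footprints. In the RNA of WT it was 2.18% and 2.15%, and in that of DKO 2.29% and 2.23%. The 4 footprint libraries thus all lay above the 4 RNA libraries, 1.45-fold on average (log2 difference 0.54), with an exact two-sided permutation p of 0.0286, the smallest that 4 against 4 libraries allow. Footprint and RNA libraries come from the same 4 cultures, and an exact sign-flip test over the cultures gave p = 0.125 for this difference and for the next, the smallest it allows and not past the threshold. The 10 most abundant members held 14% to 14.4% of the members' footprint counts and 11.6% to 12.3% of their RNA counts, and without them the members still held 2.7% to 2.79% of the footprints against 1.9% to 2.01% of the RNA.

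Set against their own genes, the contrast was wider. Members held 27.7% and 27.7% of the counts of their genes in WT footprints and 27.9% and 27.5% in DKO footprints, against 15.3%, 15.2%, 15.8% and 15.7% in the RNA libraries in the same order. The difference was 1.79-fold (log2 0.84, exact permutation p = 0.0286), while the genes as a whole took less of the footprints (11.4% to 11.7%) than of the RNA (14.2% to 14.5%). Other types that are not annotated as coding lay on the same side. Retained introns held 6.96% to 7.23% of footprints and 4.63% to 4.92% of RNA, and processed transcripts 4.08% to 4.32% and 2.75% to 3.18%, while protein-coding transcripts held 85.2% to 85.8% and 90% to 90.2%.

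**Figure D1:**
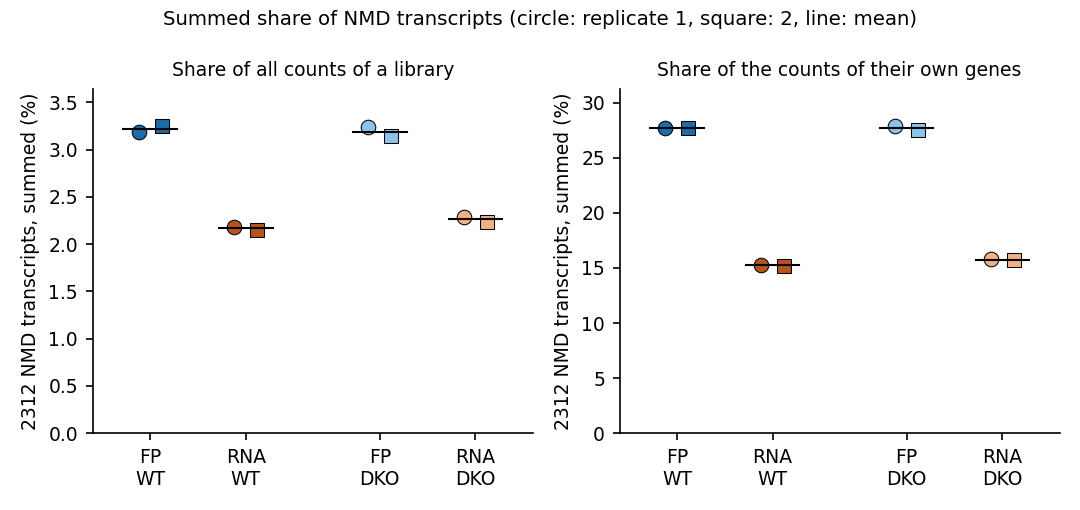
Summed share of the 2312 NMD transcripts in each library, as a percentage of all counts of the library (left) and of the counts of their own genes (right), for footprints (FP) and RNA of WT and DKO neurons. Points are libraries and lines are means of 2; the footprint libraries lie at 3.14% to 3.25% and the RNA libraries at 2.15% to 2.29% on the left.

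Each member was then compared with the other transcripts of its gene, which asks how a gene's counts were divided among its transcripts in each assay. The share of a member is its count over the count of its gene in the same library, and a log2 difference of shares is footprints minus RNA, with 4 libraries on each side. Of the 2312 members, 2175 in 1711 genes were tested; 111 were left out because their gene had under 10 counts in some library and 26 because no other transcript of the gene had counts. By edgeR's quasi-likelihood test with Benjamini-Hochberg adjustment, 829 members (38.1%) had a higher share in footprints and 489 (22.5%) a lower one. Over all 35899 transcripts tested, 63.1% were called, 28.3% higher and 34.9% lower, so that a call as such is common in this comparison and the members differ from the whole mainly in direction.

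The median log2 difference was 0.45 over the members tested, and 0.46 with members at 0 in a whole assay set to the limit that 3 counts per library allow; over all transcripts tested it was -0.19. Computed within each culture, the median was 0.5 and 0.61 in WT and 0.49 and 0.46 in DKO. The median member took 9.57% to 10% of its gene in the footprint libraries and 5.4% to 6.05% in RNA. Between 370 and 382 members held over 50% of their gene in a footprint library, against 149 to 169 in an RNA library. In 195 members the share was above 50% in all footprint libraries and below 50% in all RNA libraries, in 43 the reverse, and 59 held over 50% in all 8. These counts around 50% were made for members only, so they do not set members apart from other transcripts. All 4 footprint shares lay above all 4 RNA shares in 855 members (39.3%, against 30.3% of all transcripts tested) and below them in 523 (24%, against 37.5%). DESeq2 called 902 higher and 560 lower (67.2% of the members and 67.2% of all transcripts), and edgeR with the culture as a replicate block 573 higher and 230 lower.

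**Figure D2:**
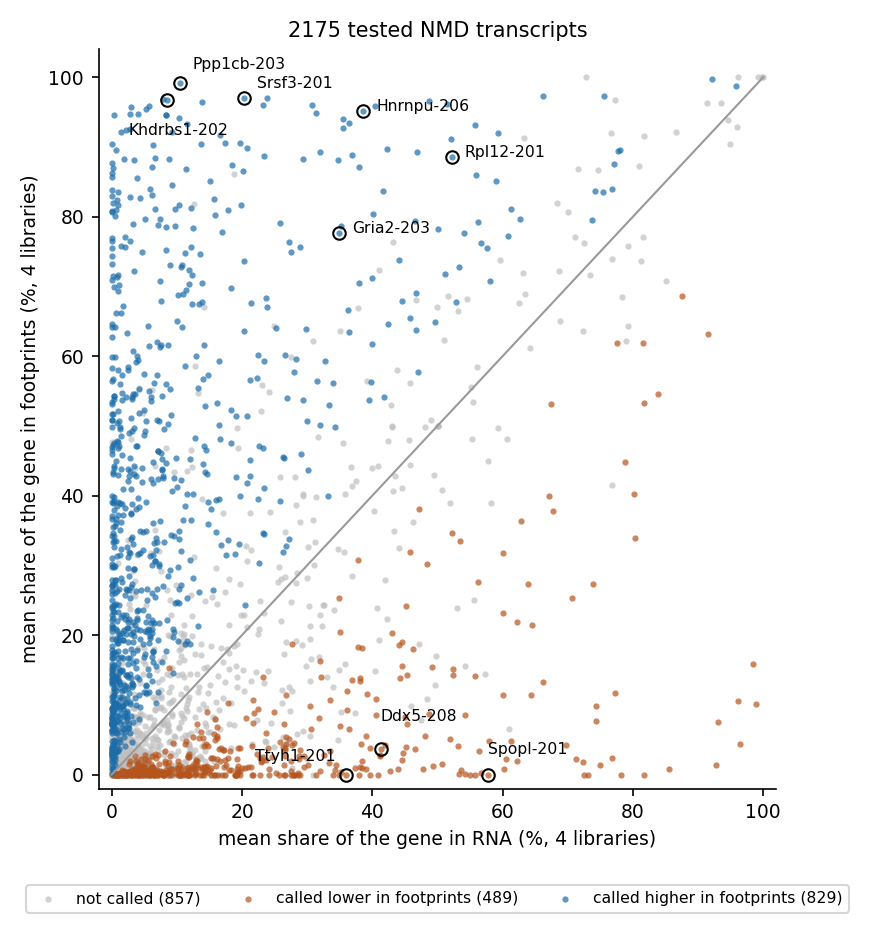
Mean share of the gene in the 4 RNA libraries (horizontal, %) against the 4 footprint libraries (vertical, %) for the 2175 NMD transcripts tested, coloured by the edgeR call, with the line of equal shares. Points called higher (829) include those in the upper left, where a transcript with little of its gene's RNA holds most of its footprints. Points called lower (489) include those along the bottom. In a footprint library, 370 to 382 of the 2175 held over 50% of their gene.

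In genes for splicing proteins more members had a higher footprint share than a lower one. The same holds for the members as a whole, of which 38.1% rose and 22.5% fell, with a median of 0.45. Of all transcripts tested, 28.3% rose and 34.9% fell, with a median of -0.19. Relative to the gene's longest coding isoform, the risers named below ran from 0.04 (Hnrnpr-206) to 0.991 (Srsf3-201) in length. The part of length in these lists was not tested. Of 8 hnRNP and PTB members tested, 6 rose and 0 fell (median log2 difference 2), of 6 SR protein members 2 rose and 0 fell (median 1.03), and of 29 members of other splicing factors and kinases 15 rose and 6 fell (median 1.42). The share that rose among the SR protein members is near that of all transcripts. Srsf3-201, from the gene of an SR protein that regulates its own splicing, held 96.8% and 97.7% of the gene's footprints in WT neurons and 97.4% and 96% in DKO neurons. In RNA its share was 20.9% and 18.7% (WT) and 21.9% and 19.7% (DKO), a log2 difference of 2.25 ± 0.05 (SE; adjusted p = 8.89e-06). The coding isoform Srsf3-202 went the other way, with 1.32% to 2.74% of the footprints and 47.1% to 52.6% of the RNA. The coding part of Srsf3-201 has no stretch of 28 bases, about the length of a footprint, that is absent from all other transcripts of the table, and its unique sequence, 27 such stretches, lies after the stop.

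Srsf1-204, from another SR protein gene, held 23.8%, 21.1%, 23% and 19.1% of the footprints in WT and DKO replicates 1 and 2, against 7.12%, 5%, 6.85% and 7.15% of the RNA (1.74 ± 0.14, adjusted p = 0.000304; 2.88 with coding isoforms as denominator). Srpk1-201, from the gene of a kinase that phosphorylates SR proteins, held 53.8% to 59.1% of the footprints and 6.76% to 11.3% of the RNA (2.76 ± 0.15, adjusted p = 8.3e-05). The groups of libraries did not overlap for either transcript. Son-212, from the gene of a cofactor of nuclear speckles, moved the opposite way: it held 2.18% to 2.64% of the footprints and 16% to 19.4% of the RNA (-2.91 ± 0.09, adjusted p = 1.36e-05).

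Among the hnRNP genes, Hnrnpu-206 held 95.5%, 95.5%, 94.8% and 94.7% of the footprints of its gene and 38.2%, 38.1%, 37.3% and 40.9% of the RNA (1.3 ± 0.03, adjusted p = 9.48e-06). The coding part of Hnrnpu-206 has no unique 28-base stretch, and its 267 unique stretches lie after the stop. Hnrnpk-203, whose stop is printed above, held 28.6% to 31% of the footprints and 6.67% to 8.06% of the RNA (2.04 ± 0.04, adjusted p = 5.14e-06). Ptbp2-206, from the gene of the neuronal PTB protein that represses exons during neuronal differentiation, held 33.2% to 42.2% of the footprints and 3.88% to 4.95% of the RNA (3.17 ± 0.13, adjusted p = 3.46e-05). Its stop lies in exon 2 of the 5 exons of a 576-base transcript. Hnrnpr-206 held 15.9% to 23.1% against 4.2% to 5.88% (1.96 ± 0.12, adjusted p = 0.000136), and has no unique 28-base stretch at all.

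In 2 members with wide gaps the reading frame ends at the stop codon of the coding isoform. Khdrbs1-202, from the gene of an RNA-binding splicing regulator, held 97.1%, 96.4%, 96.6% and 97% of the footprints (WT and DKO replicates 1 and 2) and 6.88%, 7.7%, 9.96% and 9.54% of the RNA (3.52 ± 0.05, adjusted p = 2.23e-06). Its coding part of 1332 bases is as long as that of the coding isoform Khdrbs1-201, which held 0.858% to 1.61% of the footprints and 83.6% to 87.7% of the RNA. The member is 2600 bases long and the coding isoform 3738. Ppp1cb-203, from the gene of a catalytic subunit of a protein phosphatase, has the same layout: it held 99% to 99.3% of the footprints and 6.78% to 14.5% of the RNA (3.28 ± 0.17, adjusted p = 7.02e-05), and is 2347 bases long beside a coding isoform of 5962 with an equal coding part of 984 bases. In both genes the member has no unique 28-base stretch in its coding part, so the footprints of the shared reading frame were divided by the counting program. Qk-202, from the quaking gene for an RNA-binding protein, held 88.7% to 89.6% of the footprints and 30.6% to 33.5% of the RNA (1.48 ± 0.02, adjusted p = 1.75e-06).

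Of 9 members tested in synaptic genes, 3 were higher and 5 lower (median -0.81); the share that was higher is near the 28.3% of all transcripts, of which 34.9% were lower (median -0.19). Gria2-203, from the gene of the AMPA receptor subunit that sets calcium permeability, held 77.3%, 78%, 76.1% and 79% of the footprints, in the same order of libraries. In RNA it held 34.8%, 33.3%, 34.9% and 36.3% (1.16 ± 0.03, adjusted p = 9.83e-06). The full-length coding isoform Gria2-201, of 10371 bases against 3681 for the member, held 1.46% to 2.34% of the footprints and 39% to 42.7% of the RNA. Gabbr1-205, from the gene of a GABA-B receptor subunit, held 42.2% to 47.6% of the footprints and 6.31% to 12.1% of the RNA (2.23 ± 0.15, adjusted p = 0.000155). Magi1-209, from a scaffold gene, held 12.8% to 19.3% against 5.31% to 7.34% (1.21 ± 0.21, adjusted p = 0.00506), a call that edgeR's diffSpliceDGE did not make (adjusted p = 0.108 with TMM and 0.105 with RLE). Camk2d-210, from a calcium-dependent kinase gene, was low in both assays, with 2 to 6 counts in a footprint library, and fell from 0.388% to 0.592% of the RNA to 0.0433% to 0.22% of the footprints (-2.32 ± 0.39, adjusted p = 0.00414). When only coding isoforms and the transcript itself formed the denominator, the log2 difference of Camk2d-210 was 1.09, and diffSpliceDGE did not call it (adjusted p = 0.0785 with TMM and 0.0803 with RLE).

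Of 8 ribosomal protein members tested, 2 rose and 1 fell (median -0.41), where 28.3% of all transcripts rose and 34.9% fell. Rpl12-201 held 89.9%, 87.7%, 88.2% and 88.3% of the footprints and 50.6%, 46.3%, 59.4% and 52.5% of the RNA (0.77 ± 0.05, adjusted p = 0.000163), so that this NMD transcript of a large-subunit protein was also the most counted isoform of its gene's footprints. Rpl36a-205 rose (3.52 ± 0.51, adjusted p = 0.00274), with 9.86% of the footprints in DKO replicate 2 and 29.2% to 39.8% in the other footprint libraries. Rpl10a-203 fell from 7.29% to 9.46% of the RNA to 0% to 0.355% of the footprints (-6.52 ± 0.45, adjusted p = 0.000177). Rps19-205 held 68.6% to 78.6% of the footprints and 66.7% to 72.4% of the RNA (0.07 ± 0.05, adjusted p = 0.262), and the groups overlapped. Ribosomal protein genes have many near-identical copies in the genome, and their counts are uncertain for that reason; Rpl36a-205 and Rpl10a-203 also have no unique 28-base stretch in any part.

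Of 3 members in genes of the cap-binding complex, both Eif4a2 transcripts called had a lower footprint share, and the median was -0.3. Beside this list and the next, 28.3% of all transcripts tested were higher and 34.9% lower, with a median of -0.19. Eif4a2 encodes a helicase of that complex. Eif4a2-217 held 8.05%, 3.81%, 5.39% and 8.99% of the footprints and 32.5%, 32.6%, 27.3% and 29.7% of the RNA (-2.22 ± 0.29, adjusted p = 0.0019). Eif4a2-204 differed less, with 27.7% to 34.1% against 35% to 39.6% (-0.3 ± 0.06, adjusted p = 0.00898). That call was lost with diffSpliceDGE (adjusted p = 0.345 with TMM and 0.343 with RLE) and without both libraries of WT replicate 1 (0.06) or of DKO replicate 2 (0.0685), and with coding isoforms as denominator the value was -0.96. The 2 together held most of the gene's RNA, whereas the coding isoform Eif4a2-224 held 57.9% to 60.1% of the footprints and 3.55% to 8.82% of the RNA. The coding parts of Eif4a2-204 and Eif4a2-224 are equally long, at 1089 bases. Neither Eif4a2 member has a unique 28-base stretch in its coding part, so footprints of shared sequence were divided by the counting program. Among 3 members of stress-response and classic NMD target genes (median 1.65), Tbl2-201 held 64.2% to 77.9% of the footprints against 7.69% to 15.3% of the RNA (2.54 ± 0.23, adjusted p = 0.000481). Azin1-205, from the gene of an inhibitor of antizyme, which controls polyamine synthesis, held 2.06% to 8.59% against 13.1% to 14.8% (-1.87 ± 0.45, adjusted p = 0.0157). That call was lost with coding isoforms as denominator (adjusted p = 0.0657), without footprints of DKO replicate 1 (0.0528) and without both libraries of DKO replicate 1 (0.12) or 2 (0.0964).

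Some members were seen in one assay only. All 4 RNA libraries had a count of 0 for 87 members (4% of those tested, against 2.53% of all transcripts tested), and all 4 footprint libraries for 171 (7.86%, against 7.43%). Members at 0 in an assay met the count rule only through the other assay. Their direction was thus fixed by that rule, and they are among the members tested above. Ptprg-204, from the gene of a receptor tyrosine phosphatase, held 89.7%, 81.8%, 89% and 82.4% of the footprints of its gene and none of the RNA, at least 872-fold higher than the share that 3 counts per RNA library would give. Timm23-202, from the gene of the mitochondrial import channel, held 70.2%, 76.1%, 74% and 72.6% of the footprints and had no RNA count (at least 634-fold higher). The coding isoform Timm23-201 held 3.65% to 7.77% of the footprints and 88.4% to 89.9% of the RNA. The same pattern held for Rbm18-203 (at least 577-fold higher), Stau1-211 (343), Rapgef1-207 (329), Unc5c-205 (315), Nipal3-208 (297), Gpm6b-210 (285), Eno2-208 (225) and Pmm1-207 (225), with footprint shares from 5.72% in Gpm6b-210 to 92.8% in Rbm18-203. Rapgef1-207 and Eno2-208 have no unique 28-base stretch in any part. The fold limits here and below rest on 3 counts per library and do not cover how reads were divided among isoforms. Stau1 encodes a double-stranded RNA-binding protein, Unc5c a netrin receptor and Eno2 the neuronal enolase.

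The members seen in RNA alone were led by Ttyh1-201, from the gene of a membrane protein of the tweety family, with 2169, 3896, 6238 and 2312 counts in the RNA libraries and 0 in every footprint library. It held 34%, 38%, 35.4% and 36.5% of the RNA of its gene, and its footprint share was at least 715-fold lower. Its gene was well covered in footprints, with 3997 to 7942 counts per library. Tcf12-220 (at least 140-fold lower), from the gene of a basic helix-loop-helix transcription factor, and Papola-214 (at least 123-fold lower), from the gene of a poly(A) polymerase, had 36.9% to 45.1% and 23.8% to 34.4% of the RNA. Rabggtb-203, Tardbp-201, Gpcpd1-213, Tubgcp3-203, Rnf115-202, Ntng1-206 and Spopl-201 followed, at least 30.9-fold to 88.4-fold lower in footprints. Tardbp-201, from the gene of the RNA-binding protein TDP-43, which limits its own level by splicing its 3′ end, held 6.26% to 8.94% of the RNA. Rabggtb-203, Gpcpd1-213 and Tardbp-201 have no unique 28-base stretch in any part.

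The most abundant members went in both directions. The 10 members with the highest mean level included Ddx5-208, from the gene of an RNA helicase, which held 5.65%, 3.06%, 2.7% and 3.26% of the footprints and 41.9%, 40.1%, 43.7% and 39.6% of the RNA (-3.52 ± 0.22, adjusted p = 0.000135). Its stop, printed above, lies in an exon of 1550 bases that no coding isoform holds. The coding part of Ddx5-208 has no unique 28-base stretch, and its 870 unique stretches lie after the stop. At the other end Ndrg4-206 stood at 810 ± 35.8 CPM in footprints and 0.64 ± 0.533 CPM in RNA (SD, n = 4), which was 51.9% to 55% and 0% to 0.0975% of its gene (10.16 ± 0.79, adjusted p = 0.000272). Ndrg4-206 likewise has no unique stretch in its coding part and 26 after the stop. Ywhae-203, from a 14-3-3 protein gene, was the most counted member in footprints and differed little, with 28.7% to 35% of the footprints and 23.4% to 28.5% of the RNA (0.28 ± 0.07, adjusted p = 0.0159), a call lost in 7 of 19 alternative settings (adjusted p up to 0.264). Atp5f1-203, whose gene has no coding isoform in the table, held 98.3% to 99% and 95.5% to 96.1% (0.04 ± 0.01, adjusted p = 0.0332). That call was lost in 15 of 19 alternative settings, among them the culture block (adjusted p = 0.11).

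**Figure D3:**
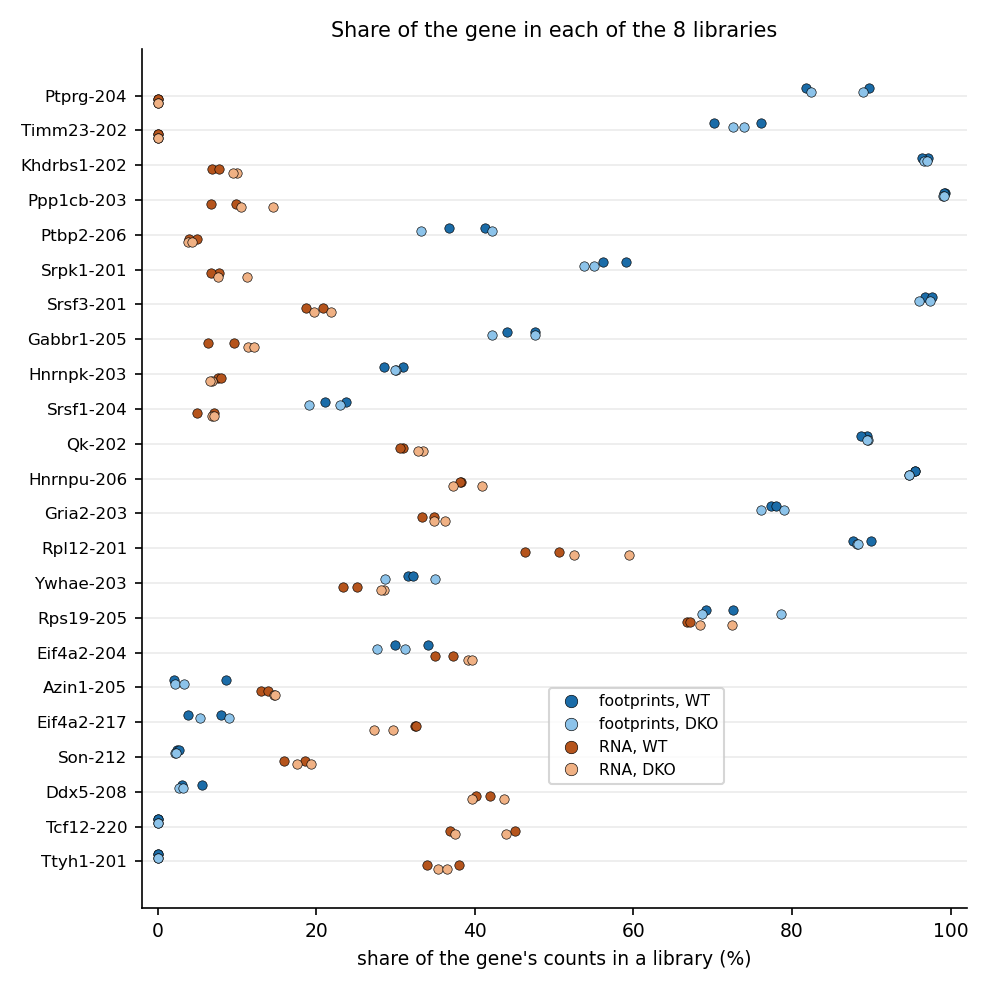
Share of the gene's counts (%) of 23 NMD transcripts in each of the 8 libraries, ordered from those higher in footprints (blue) to those higher in RNA (orange), with WT dark and DKO light. Ptprg-204 and Timm23-202 are at 0 in all RNA libraries, Ttyh1-201 and Tcf12-220 at 0 in all footprint libraries, and Rps19-205 overlaps between assays.

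The direction followed the length of the member relative to its gene's longest coding isoform. Of 477 members under 0.25 of that length, 285 rose (59.7%) and 34 fell (7.13%), with a median log2 difference of 2.5. Between 0.25 and 0.5 the shares were 54.1% and 14.6% of 451 members (median 1.59), and between 0.5 and 1 they were 32.7% and 22.7% of 797 (median 0.17). Of the 378 members as long or longer, 20 rose (5.29%) and 195 fell (51.6%), with a median of -2.43. Across the 2103 members with a coding isoform, Spearman's rho between relative length and the log2 difference was -0.45 and Pearson's r -0.36; these are transcripts that share libraries and genes, not independent replicates.

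Protein-coding transcripts showed the same gradient. Of those under 0.25 of the longest isoform, 56.1% rose and 9.76% fell (median 2.19), and of those at 1 or more 10.1% rose and 50.2% fell (median -0.54). Retained introns had lower medians than members in every class, from 35.9% higher and 26.9% lower in the shortest (median 0.33) to 3.25% and 76.6% in the longest (median -3.57). Between 0.25 and 0.5, 54.9% of coding transcripts rose and 15.4% fell (median 1.66). Over all lengths the medians were 0.45 for members, -0.07 for coding transcripts and -1.7 for retained introns. Members were shorter than coding isoforms, with a median of 1732 bases against 2347, and their coding part was a median of 312 bases against 1119. The part of length in the higher footprint share of members was not tested beyond these classes.

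**Figure D4:**
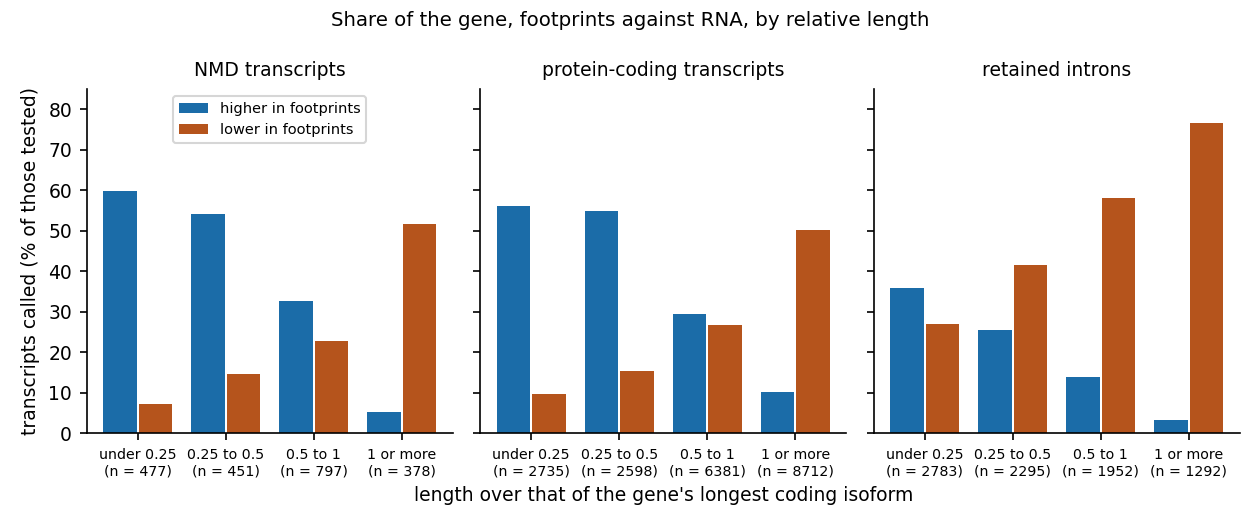
Percentage of tested transcripts called higher (blue) or lower (orange) in footprints than in RNA, by length relative to the gene's longest coding isoform, for NMD transcripts, protein-coding transcripts and retained introns, with the number tested under each class. In all 3 types the blue bars shrink and the orange bars grow with length; for NMD transcripts they go from 59.7% and 7.13% to 5.29% and 51.6%.

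Other features that the labels of the members did not fix also differed in direction. Members whose stop lies in an exon of a coding isoform rose more often than they fell (491 against 203 of 1167, median 0.84). Those with a stop outside such exons were near balance (261 against 213 of 769, median 0.08), and those sharing the stop codon of a coding isoform were too (57 against 60 of 166, median -0.65). By the annotation's transcript support level, 351 rose and 352 fell among the 1226 best supported members, at level 1 (median -0.22), whereas 369 rose and 66 fell among 672 at level 3 (median 2.17). A median of 91% of the 28-base stretches of a member's coding part also occur in coding isoforms. Members with no unique stretch in the coding part rose in 196 and fell in 158 of 540 cases (median 0.16), those with at least 1 rose in 633 and fell in 331 of 1635 (median 0.54), and the 153 with 100 or more, where footprints can best be told apart, rose in 47 and fell in 38 (median 0.01). Of 160 genes with more than 1 member called, all called members rose in 58, all fell in 16 and they went in opposite directions in 86.

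The genotype comparisons asked whether NMD transcripts took another share of their gene in DKO neurons. Summed over all members, the share of the RNA counts was 1.04-fold higher in DKO than in WT (log2 0.06), with both DKO libraries above both WT libraries, and the share of the footprints was 0.992-fold (log2 -0.01), with overlapping groups. With 2 libraries on each side no permutation p can go below 0.333, so these are values without a test. Per member, 1 of 2175 was called in RNA, higher in DKO, against 0.0111% of all transcripts tested (0.00836% higher and 0.00279% lower). At an unadjusted p under 0.05 there were 147 members (6.76%, against 4.21% of all transcripts), and DESeq2 called 36 (27 higher and 9 lower; 1% of all transcripts were called). Both DKO values lay above both WT values in 421 members (19.4%, against 17.5% of all transcripts) and below them in 280 (12.9%, against 15.4%), and the median log2 difference was 0.03.

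The member called was Plrg1-201, from the gene of a spliceosome component of the PRP19 complex. WT RNA had 4 and 8 counts of it and DKO RNA 724 and 263, which is 0.429% and 0.581% of its gene against 27.5% and 26.7%. The log2 difference was 5.69 ± 0.31 (adjusted p = 0.0486), and it lost the call in 13 of 20 alternative settings while keeping values from 5.52 to 5.95. Its footprint shares were 60.4% and 60.7% (WT) and 91.1% and 58.7% (DKO), which overlap (0.31 ± 0.21, adjusted p = 1). The interaction, the DKO minus WT difference in footprints less that in RNA, was -5.39 ± 0.37 (adjusted p = 0.0912). The coding isoform Plrg1-204 held 96.1% and 96.1% of the WT RNA, and 68.2% and 70.1% of the DKO RNA. Plrg1-201 is set apart by 4 unique 28-base stretches in its coding part and 23 after the stop.

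The next smallest p-values did not pass the threshold. 5330417C22Rik-207 took 16.7% and 15% of its gene in WT RNA but 96.7% and 94.5% in DKO RNA, with 12.6% to 15.7% in all footprint libraries (RNA 2.59 ± 0.24, adjusted p = 0.116). It is set apart from the other transcripts of the table by only 5 unique 28-base stretches, all before its start codon. Ints6l-203 had 0 counts in WT RNA and 6.26% and 4.47% of its gene in DKO RNA (at least 18.3-fold higher, adjusted p = 0.116). It has no unique stretch in its coding part and 3 after the stop. On the low side Dhrs13-204 went from 13.1% and 15.9% in WT RNA to 1.78% and 3.78% in DKO RNA (-2.41 ± 0.43, adjusted p = 0.425), and Csrnp3-203 went from 52 and 26 counts to 0 (at least 18.4-fold lower, adjusted p = 0.38). Mbp-213, from the gene of myelin basic protein, had 13 and 28 counts in WT RNA and 0 in DKO RNA (adjusted p = 0.297). Over 5 markers of the oligodendrocyte lineage, Mbp among them, DKO RNA summed to 371 to 411 CPM and WT RNA to 524 to 630; the part of that in the Mbp-213 value was not tested, and in bulk samples fewer cells of a type and less RNA per cell cannot be told apart.

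In footprints no member was called for genotype, against 0% of all transcripts tested. At an unadjusted p under 0.05 there were 83 members (3.82%, against 4.43% of all transcripts), and DESeq2 called 25 (15 higher and 10 lower; 0.735% of all). The DKO values lay above both WT values in 260 members (12%, as in 12% of all transcripts) and below them in 265 (12.2%, against 12.3%). Afg3l1-202, from the gene of a mitochondrial protease, had 0 counts in WT footprints and 232 and 201 in DKO footprints, 40.1% and 21% of its gene (at least 80.8-fold higher, adjusted p = 0.157). Its RNA shares of 9.61% and 15% in WT and 5.93% and 4.45% in DKO lay the other way round. Adprm-204 (at least 6.29-fold higher, adjusted p = 0.186) and 4933434E20Rik-208 (at least 4.19-fold higher, adjusted p = 0.157) also had no WT footprint count, and Stau2-205, Uchl5-203 and Slc46a1-202 had none in DKO, with at most 37 counts in a WT library.

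The interaction asked whether the footprint share relative to RNA differed by genotype. No member was called, against 0% of all transcripts, 136 had an unadjusted p under 0.05 (6.25%, against 5.23%), and DESeq2 called 36 (15 higher, 21 lower; 1.09% of all). The median over members was -0.06 and over all transcripts -0.01. Among the splicing members named above, the RNA difference between genotypes was 0.07 ± 0.07 for Srsf3-201, 0.04 ± 0.04 for Hnrnpu-206 and -0.12 ± 0.17 for Ptbp2-206 (edgeR adjusted p = 1 each). Of the 66 members tested in the gene lists, edgeR called 0 in RNA, in footprints and in the interaction, with 10, 4 and 7 at an unadjusted p under 0.05, and DESeq2 called 2 in each. Over all transcripts tested, 4.21%, 4.43% and 5.23% had an unadjusted edgeR p under 0.05, and DESeq2 called 1%, 0.735% and 1.09%. Those 2 in RNA were Khdrbs1-202 and Rbm5-210, from the gene of an RNA-binding splicing regulator. Khdrbs1-202, whose RNA shares of 6.88% and 7.7% in WT and 9.96% and 9.54% in DKO are given above, differed by 0.42 ± 0.06 (edgeR adjusted p = 0.338, DESeq2 adjusted p = 0.0323). Of the RNA of its gene, Rbm5-210 held 8.74% and 9.14% (WT) against 20.2% and 18.9% (DKO), a difference of 1.13 ± 0.2 (edgeR adjusted p = 0.414, DESeq2 adjusted p = 0.000714), and its interaction was -1.27 ± 0.28 (DESeq2 adjusted p = 0.0169).

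In footprints DESeq2 called Tra2b-206, from the gene of a splicing regulator related to the SR proteins, and Rpl10a-203. Tra2b-206 held 22.2% and 24.5% of its gene in WT footprints and 33.4% and 35.3% in DKO footprints (0.56 ± 0.11, edgeR adjusted p = 0.429, DESeq2 adjusted p = 0.0156), and its RNA shares of 25.6% and 23.1% in WT and 35.1% and 29.7% in DKO lay the same way. Rpl10a-203 had 4 and 0 counts in WT footprints and 18 and 27 in DKO footprints (3.74 ± 0.72, edgeR adjusted p = 0.425, DESeq2 adjusted p = 0.000768; interaction 3.55 ± 0.86, DESeq2 adjusted p = 0.00264). Rbm5-210 and Tra2b-206 were named after their values were seen. Positive RNA differences were found in 5 of 6 SR protein members (median 0.23), 3 of 8 hnRNP and PTB members (median -0.06), 19 of 29 members of other splicing factors (median 0.1) and 7 of 8 ribosomal protein members (median 0.15), and in 50.4% of all transcripts tested (median 0).

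**Figure D5:**
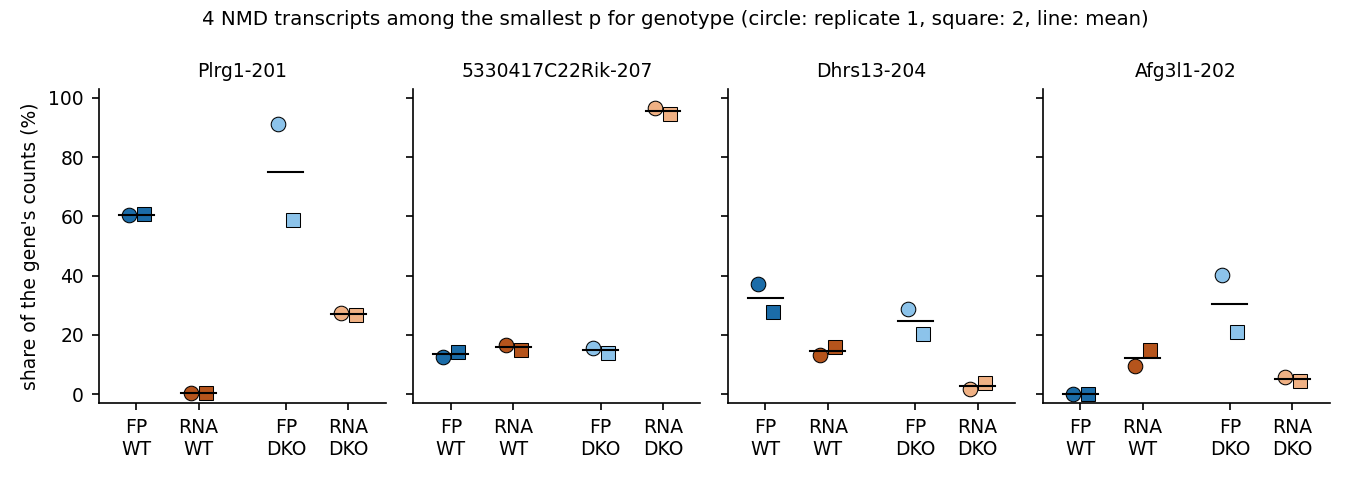
Share of the gene's counts (%) of 4 NMD transcripts among those with the smallest p for genotype, in footprints (FP) and RNA of WT and DKO neurons, with 2 libraries per group and their mean. Plrg1-201 was called in RNA (0.429% and 0.581% against 27.5% and 26.7%); the other 3 did not pass the threshold.

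The genes of the pathway that acts on these transcripts were measured as whole genes. None of the 20 NMD factors and 9 exon junction complex genes tested is itself the gene of a member. For DKO against WT, edgeR's quasi-likelihood test called 0 of the 29 in RNA, in footprints and in the interaction, where 0.0155%, 0.00775% and 0% of all 12898 genes tested were called. At an unadjusted p under 0.05 there were 0, 2 and 1, and the medians of the log2 difference were 0.02, 0.02 and 0.04. The 2 in footprints were Smg1, the kinase of Upf1, and Dcp2, the decapping enzyme. Smg1 stood at 8.71 and 11.7 CPM in WT and 13.7 and 13 CPM in DKO footprints (0.41 ± 0.14, adjusted p = 0.836), with 27.2, 26.1, 26.7 and 25.8 CPM in RNA (interaction 0.44 ± 0.19, adjusted p = 1). Dcp2 stood at 43.8 and 50.1 CPM in WT and 41.5 and 36.8 CPM in DKO footprints (-0.25 ± 0.1, adjusted p = 0.836). In RNA the smallest p-values were those of Magoh, a core subunit of the exon junction complex (0.15 ± 0.1, adjusted p = 0.855), and Upf2, which bridges that complex to Upf1 (-0.13 ± 0.11, adjusted p = 0.898). Upf1 itself stood at 66.4 to 74.8 CPM in footprints and 46.7 to 58.1 CPM in RNA, and its groups overlapped in RNA.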

How the data were processed

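Ribosome footprints and total RNA were counted in 8 libraries, 2 in each of 4 groups. The authors deposited 1 table of estimated counts, whole numbers for each Ensembl transcript and library. The submitters' processing notes name FastQC, Trimmomatic, Bowtie and kallisto; versions, settings, transcript set and strand use are not stated in those sources. kallisto divides reads that fit several transcripts among them, so counts of isoforms with the same coding part, of overlapping genes and of near-identical copies are uncertain. Of 60528 transcripts, 60444 matched GENCODE M21 and 84, with 0.0765% to 0.151% of a library's counts, were left out. The table holds transcripts of support levels 1 to 3.

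The share of the gene was tested with edgeR 4.0.16 (limma 3.58.1, R 4.3.3), quasi-likelihood, with the log of the gene's count in the library as offset and a mean for each of the 4 groups (4 residual degrees of freedom). Transcripts were tested that had 10 or more counts in at least 2 libraries, a gene with 10 or more counts in every library and another transcript with counts; p-values were adjusted over all 35899 by Benjamini-Hochberg and called under 0.05. The median SE was 0.617 for members in footprints against RNA. Whole genes were tested on TMM-scaled sums. Footprint and RNA libraries of a number were taken as 1 culture from the labels' codes (uncertain for DKO replicate 2, where they are spelled differently); their replicate differences correlated at -0.01 in WT and -0.006 in DKO over 21168 transcripts. The fits were tested on simulated data with known changes. For DKO against WT in RNA, 7 of 100 transcripts changed 8-fold were called in the right direction, and 0 of 100 changed 2-fold. Footprints against RNA also gave 7 and 0 with 100 transcripts changed at each fold. With 5000 changed at each fold, 48.9% and 8.98% were called in the right direction.

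Members were named by a rule: the 10 largest called changes per direction with a mean count of at least 50 and groups that do not overlap, the 10 most abundant, those with the smallest p per genotype contrast, and up to 4 per gene list. A few ends of ranges and the other isoforms shown were added beside them. S6 kinase genes were kept out of the ribosomal list. The members, lists and rule were chosen with earlier results of these data known. Alternatives were DESeq2 1.42.0, edgeR's diffSpliceDGE with TMM or RLE, a mean count of at least 50, no filter, coding isoforms as denominator, 1 assay alone, replicate blocks and leaving out libraries; leaving out whole cultures was added after seeing the data.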

Additional observations from a re-analysis of the deposited data

How the results depend on the processing

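Of 829 members higher in footprints, other settings gave 573 to 902, always more than those lower. The 489 lower became 321 with a mean count of at least 50 and 230 with the culture as replicate block, and the median of 0.45 became 0.54 with coding isoforms as denominator, 0.73 with a mean count of at least 50, 0.38 with the culture block, 0.36 to 0.54 without 1 library and 0.37 without both libraries of DKO replicate 2. The numbers do not pair the samples across genotype; with a replicate block by number the 1 member called for genotype in RNA became 0.

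That member, Plrg1-201, also gave a count of 0 with coding isoforms as denominator, with the RNA libraries alone and without both libraries of any culture (adjusted p = 0.191 to 0.599), and 0 to 1 without 1 library. DESeq2 called 27 higher and 9 lower in RNA, 15 and 10 in footprints and 15 and 21 in the interaction; diffSpliceDGE called 14 and 4, 8 and 6, and 5 and 9, with TMM and with RLE alike. Without 1 library the interaction had 0 to 1 lower. The cause of these differences was not tested.

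The summed shares kept 0.54 and 0.84 in an exact sign-flip test over the 4 cultures (p = 0.125) and, by the exact permutation test, 0.52 to 0.55 and 0.83 to 0.85 without 1 library (p = 0.0571) and 0.52, 0.53, 0.55 and 0.55, and 0.83, 0.83, 0.85 and 0.85, without both libraries of a culture (p = 0.1), each the smallest p such a test allows.

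Of 47 members named for footprints against RNA, 6 lost the call in some setting. With coding isoforms as denominator Camk2d-210 turned to 1.09 and Atp5f1-203, which then has itself alone as denominator, to -0.0. With that setting counted, Atp5f1-203 lost the call in 15 of 19 settings and Camk2d-210 in 3 of 18, the others being diffSpliceDGE for Camk2d-210. Ywhae-203 lost it in 7 (adjusted p = 0.0549 without RNA of WT replicate 1 and 0.0522 without RNA of DKO replicate 2). Azin1-205 and Eif4a2-204 lost it in 4 each (Azin1-205 at 0.0528 without footprints of DKO replicate 1), and Magi1-209 in 2, with diffSpliceDGE. No pathway gene was called with RLE, DESeq2, no filter, a replicate block or without 1 library.

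The SE of a genotype difference was a median of 0.691 in RNA and 0.624 in footprints, and differences several times as large did not pass adjustment (5330417C22Rik-207 in RNA, 2.59 ± 0.24, adjusted p = 0.116), so that a member not called for genotype is not shown to be alike in WT and DKO. Each 0 was taken as at most 3 counts per library, which allows for sampling alone. Fold limits built on it do not cover how reads were divided among isoforms. Reads were divided among isoforms before deposit, and none of the settings touches that step.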
